A study of Mus musculus with 8 samples.

Results

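The vascular endothelial genes described here are 37 genes that mark the cells lining blood vessels, found by symbol in both expression tables of the study. All 37 were listed among the 17740 genes of the high-fat diet (HFD) table and the 16436 genes of the normal chow diet (ND) table. The genes were picked by name, with earlier results of these data known, so their counts are read as a description of the list. Endothelial cells hold the vessel wall together with tight and adherens junctions, read growth factors and angiopoietins through receptor tyrosine kinases, and keep their identity through ERG of the ETS family and the SOXF factors. White adipose tissue is dense in capillaries, its fat cells lie close to vessels, and macrophages of the tissue also lie along vessels. Some of these genes, Eng and Tal1 among them, are also transcribed in blood-forming and myeloid cells.

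RNA was sequenced from 2 macrophage populations of epididymal white adipose tissue (eWAT) of wild-type male mice, which on the study's account were C57BL/6J and began their diets at 6 weeks of age. Adhesion-related macrophages (ARMs) were sorted from the floating adipocyte layer that is left after collagenase digestion and then broken open with beads. SVF macrophages (SMs, titled NARM by the submitters) were sorted from the pelleted stromal vascular fraction of the same kind of tissue. Both came from mice on chow and from mice that had 8 weeks of HFD (60% fat), with 2 libraries in each of the 4 groups. Each library was a pool, of 10 mice for ND and of 6 for HFD, so no value belongs to one animal. The labels do not say whether the 2 libraries of a group came from separate pools of mice, so the p-values measure only the spread between these libraries.

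The libraries held 14508824 to 19040133 estimated read counts, of which the 37 genes took 0.0206% to 0.0533%. The 10 macrophage markers checked were abundant in both populations, with a summed level of 17579 to 21384 CPM, counts scaled to a common library depth. By edgeR's quasi-likelihood test 0 of the 10 were called between ARMs and SMs in either diet (4 in HFD and 1 in ND at an unadjusted p below 0.05, and 0 by DESeq2). In bulk RNA of sorted cells, a larger number of cells of one type and more RNA of that type per cell cannot be told apart.

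Levels were low in SMs for nearly all of the 37 genes. FPKM values, which correct read counts for transcript length and library depth, had a median over the genes of 0.875 in HFD SMs and 0.575 in ND SMs. Eng, which encodes the TGF-beta co-receptor endoglin, was far above the rest, and apart from it no gene passed 4.87 FPKM in an SM library. The next by mean SM level were Cldn5, Pecam1, Icam2, Adgrf5 and Esam. In HFD SMs 10 of the 37 genes reached 1 FPKM in both libraries, whereas 33 did in both HFD ARM libraries. Of these 33, 15 were below 1 FPKM in both SM libraries.

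**Figure D1:**
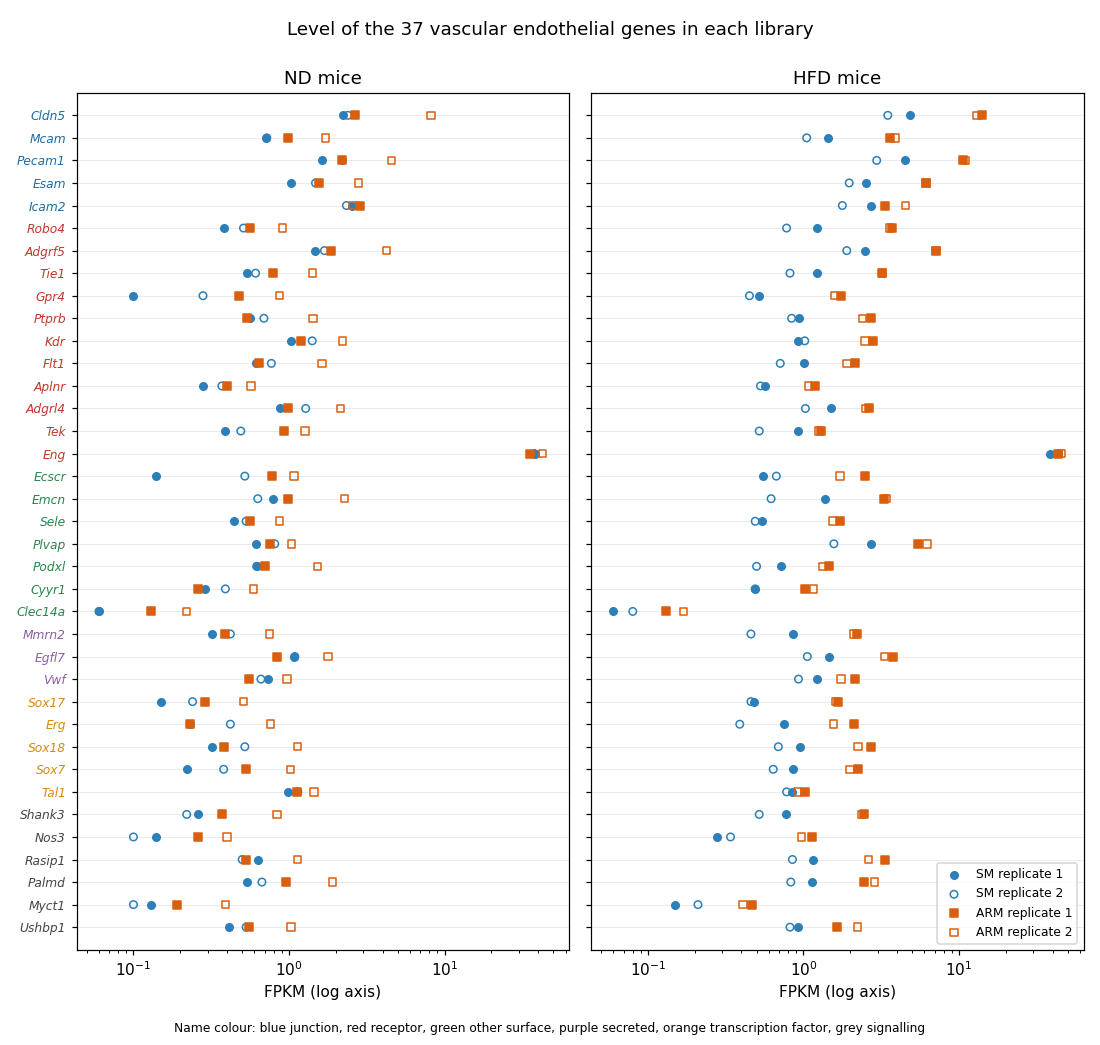
FPKM (log axis) of each of the 37 genes, a row per gene, in the ND libraries (left) and HFD libraries (right); circles are SMs, squares ARMs, filled symbols replicate 1 and open symbols replicate 2. In HFD mice both ARM squares lie to the right of both SM circles for 36 genes, with Eng the exception, whereas in ND mice the filled ARM squares lie among the circles for many genes.

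The first question was whether endothelial transcripts differed between ARMs and SMs of HFD mice. Of the 37 genes 31 rose in ARMs, none fell, and the median log2 fold change was 1.49 with quartiles of 1.11 and 1.62. Calls here needed a change over 1.5-fold and a Benjamini-Hochberg adjusted p below 0.05 in the quasi-likelihood test of edgeR, adjusted over all genes. The called share was 83.8%, where 4.46% of the 13337 genes tested were called higher in HFD ARMs and 0.292% were called lower, and the median log2 fold change over all tested genes was -0.0064. Both ARM libraries were above both SM libraries for 36 of the 37 genes, against 26.2% of all genes tested. Among the called genes the fold change ran from 1.78 to 3.76 and the adjusted p from 2.35e-05 to 0.0176. With 1 ARM library left out, and the lone ARM library taken to vary as the SM libraries did, 19 genes were called without ARM replicate 1 and 20 without ARM replicate 2. Without a filter on low counts 15 were called, and limma on unfiltered log2(FPKM + 1) values called 0, with 35 genes higher at an unadjusted p below 0.05.

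**Figure D2:**
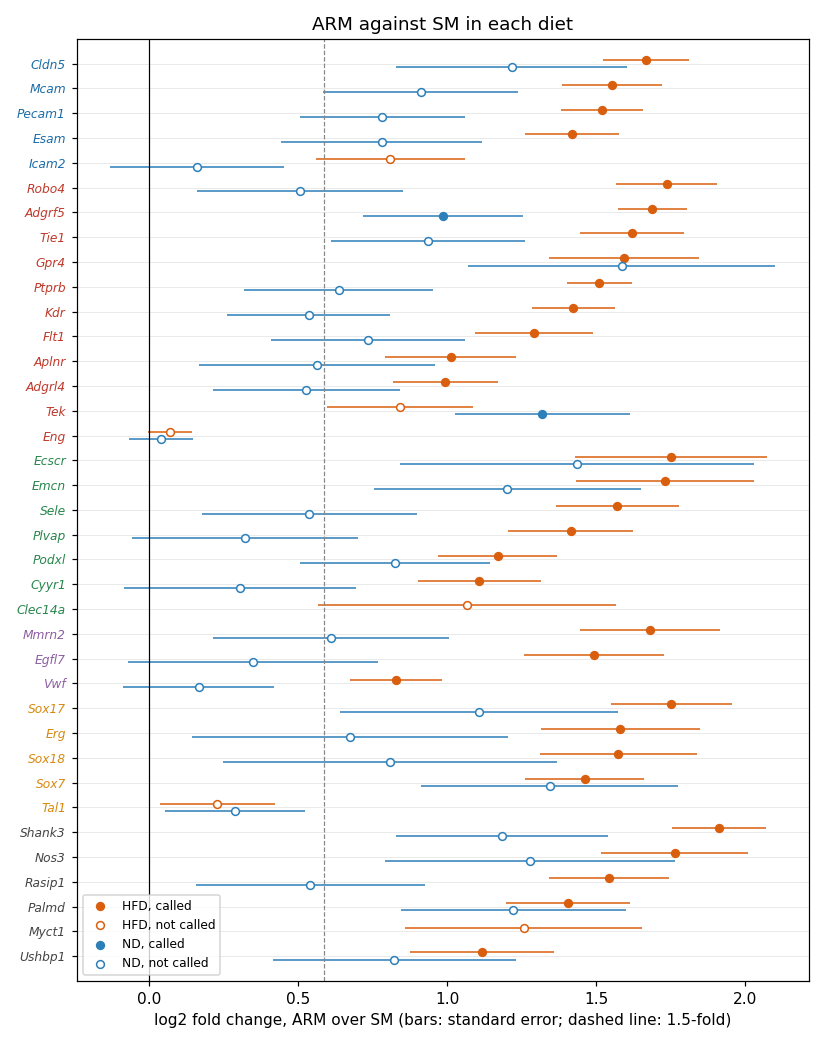
Log2 fold change of ARMs over SMs (x axis) for each gene (y axis) in HFD mice (orange) and ND mice (blue), with bars of 1 standard error; filled points were called and the dashed line marks 1.5-fold. The HFD points lie to the right of the ND points for 33 of the 35 genes tested in both diets, and Eng and Tal1 lie near 0 in both.

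Junction genes rose together in HFD ARMs, 4 of 5 being called. Cldn5, encoding the tight junction protein claudin-5, was at 4.87 and 3.49 FPKM in the SM libraries and at 13.97 and 13.09 FPKM in the ARM libraries. Pecam1 (CD31), which joins neighbouring endothelial cells, was at 4.47 and 2.96 FPKM in SMs and at 10.63 and 11.05 FPKM in ARMs. Esam, an endothelial adhesion molecule of tight junctions, went from 2.53 and 1.97 FPKM to 6.14 and 6.12 FPKM. For each of these genes both ARM libraries stood above both SM libraries with a wide gap, and SM replicate 1 was above SM replicate 2. The log2 fold changes were 1.67 (SE 0.145) for Cldn5, 1.52 (SE 0.137) for Pecam1 and 1.42 (SE 0.157) for Esam, with adjusted p of 0.000101, 0.000126 and 0.000428 in edgeR's quasi-likelihood test. Mcam (CD146), one of the adhesion genes that the study itself picked for RT-PCR, changed by 1.55 on the log2 scale, SE 0.168, with an adjusted p of 0.000369 in the same edgeR test. Icam2, a ligand of leukocyte integrins, was at 2.71 and 1.78 FPKM in SMs and 3.36 and 4.52 FPKM in ARMs. Its groups did not overlap, but the log2 fold change of 0.81 (SE 0.250) did not pass, with an adjusted p of 0.0729 in edgeR's quasi-likelihood test.

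Of the 11 receptor genes 9 rose in HFD ARMs. Adgrf5, an adhesion G protein-coupled receptor of endothelium, had the smallest adjusted p of all 37 genes. It was at 2.50 and 1.90 FPKM in SMs and at 7.08 and 7.13 FPKM in ARMs, a log2 fold change of 1.69 (SE 0.116, adjusted p 2.35e-05 by edgeR's quasi-likelihood test). The ARM libraries differed from each other by far less than either did from the SM libraries. Ptprb, the vascular phosphatase VE-PTP that restrains TIE2, changed by 1.51 on the log2 scale. Robo4, a roundabout receptor of endothelium, changed by 1.74 and Tie1, the partner of TIE2, by 1.62 on the same scale. The VEGF receptor Kdr (VEGFR2) went from 0.92 and 1.02 FPKM in SMs to 2.79 and 2.49 FPKM in ARMs, and Flt1 (VEGFR1) from 1.01 and 0.71 to 2.15 and 1.91 FPKM. Neither receptor's groups overlapped, and both were called, Kdr at 2.68-fold and Flt1 at 2.45-fold. The proton-sensing receptor Gpr4, the adhesion receptor Adgrl4 and the apelin receptor Aplnr were called at 3.02-fold, 1.99-fold and 2.02-fold.

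Tek and Eng were the receptor genes that did not pass in HFD mice. Tek (TIE2), the angiopoietin receptor, was at 0.93 and 0.52 FPKM in SMs and at 1.30 and 1.26 FPKM in ARMs. Its groups did not overlap, but SM replicate 1 lay nearer to the ARM libraries than to SM replicate 2, and the log2 fold change of 0.84 (SE 0.245) had an adjusted p of 0.0586 in edgeR's quasi-likelihood test. Eng was at 38.79 and 43.72 FPKM in SMs and at 43.04 and 45.39 FPKM in ARMs. Its groups overlapped, the only such gene among the 37 in HFD mice, and the log2 fold change of 0.069 (SE 0.0729) had an adjusted p of 0.641 in the same edgeR test. In ND mice Eng was at 38.33 and 37.84 FPKM in SMs and at 35.28 and 42.76 FPKM in ARMs, again overlapping, with a log2 fold change of 0.038 (SE 0.107). Over all 8 libraries the level of Eng thus stayed between 35.28 and 45.39 FPKM.

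Among the transcription factors, the 3 SOXF genes and Erg rose and Tal1 did not pass. Sox17 was at 0.48 and 0.46 FPKM in HFD SMs and at 1.68 and 1.62 FPKM in HFD ARMs. Sox7 was at 0.86 and 0.64 FPKM in SMs and at 2.23 and 1.99 FPKM in ARMs, and Sox18 at 0.95 and 0.69 against 2.73 and 2.24 FPKM. Erg, the ETS factor that keeps endothelial identity, was at 0.75 and 0.39 FPKM in SMs and at 2.10 and 1.56 FPKM in ARMs. In all of these 4 genes the ARM libraries were above the SM libraries, by log2 fold changes of 1.75 (SE 0.204) for Sox17, 1.46 (SE 0.201) for Sox7, 1.57 (SE 0.264) for Sox18 and 1.58 (SE 0.266) for Erg. Tal1, a basic helix-loop-helix factor of both blood and endothelial precursors, had a log2 fold change of 0.23 (SE 0.193, adjusted p 0.546 by edgeR's quasi-likelihood test).

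The other surface and secreted genes gave the same picture, with 6 of 7 and 3 of 3 called. Sele, the E-selectin on which leukocytes roll, was at 0.54 and 0.49 FPKM in HFD SMs and at 1.71 and 1.55 FPKM in HFD ARMs. Plvap, which forms the diaphragms of endothelial pores and caveolae, was at 2.74 and 1.57 FPKM in SMs and at 5.45 and 6.24 FPKM in ARMs. Emcn, the sialomucin endomucin, was at 1.38 and 0.62 FPKM in SMs and at 3.31 and 3.41 FPKM in ARMs. The groups were apart for all 3 genes, but the SM libraries of Plvap and Emcn differed from each other by more than the ARM libraries did. Ecscr was called at 3.37-fold, the sialomucin Podxl at 2.25-fold and Cyyr1 at 2.15-fold. Clec14a, a C-type lectin, had only 5 and 7 counts in SMs and 11 and 14 counts in ARMs and did not pass, with an adjusted p of 0.234 in edgeR's quasi-likelihood test. Its extracellular matrix ligand Mmrn2 was called at 3.21-fold, the secreted factor Egfl7 at 2.82-fold and the clotting protein gene Vwf at 1.78-fold, which was the smallest change among the called genes.

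Of the 6 genes of signalling and other functions, 5 rose. Shank3, a scaffold protein best known from synapses, had the largest change of the 37 genes, from 0.77 and 0.52 FPKM in HFD SMs to 2.45 and 2.36 FPKM in HFD ARMs. Nos3, the endothelial nitric oxide synthase, was at 0.28 and 0.34 FPKM in SMs and at 1.13 and 0.97 FPKM in ARMs. Both genes had ARM libraries well above their SM libraries, by 3.76-fold (adjusted p 7.13e-05) and 3.40-fold (adjusted p 0.0016) in edgeR's quasi-likelihood test. Rasip1, a Ras-interacting protein needed for vessel lumens, was called at 2.91-fold, Palmd at 2.65-fold and Ushbp1 at 2.17-fold. Myct1, at 8 and 11 counts in SMs and 24 and 21 counts in ARMs, had a log2 fold change of 1.26 (SE 0.398) and did not pass (adjusted p 0.0788 by edgeR's quasi-likelihood test).

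Promoter windows show the sequence near the starts of these genes. RefSeq windows of assembly GRCm38.p6, the build of the files (mm10), covered 22 of the 37 genes, each with 250 bases before and 50 after a transcription start, and some genes had several windows. Of these 22 genes 17 were called higher in HFD ARMs. The upstream 250 bases are printed for the called genes with a single window, no overlap with an annotated gene and the smallest adjusted p, and for Eng as the gene with the smallest change. Capitals mark the ETS motif CAGGAA on either strand (read as TTCCTG where it lies on the other one), and sequences run 5′ to 3′ on the strand of the gene. The coordinates are chr16:18776597-18776846, plus strand, for Cldn5, chr4:118489850-118490099, minus strand, for Tie1, chr7:45627287-45627536, plus strand, for Rasip1, chr7:19212288-19212537, plus strand, for Gpr4 and chr2:32646345-32646594, plus strand, for Eng.
Cldn5: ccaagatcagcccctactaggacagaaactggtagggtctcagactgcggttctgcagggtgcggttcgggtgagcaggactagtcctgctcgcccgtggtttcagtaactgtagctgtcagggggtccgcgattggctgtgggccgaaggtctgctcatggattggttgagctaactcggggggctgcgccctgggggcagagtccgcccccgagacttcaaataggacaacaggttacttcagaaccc
Tie1: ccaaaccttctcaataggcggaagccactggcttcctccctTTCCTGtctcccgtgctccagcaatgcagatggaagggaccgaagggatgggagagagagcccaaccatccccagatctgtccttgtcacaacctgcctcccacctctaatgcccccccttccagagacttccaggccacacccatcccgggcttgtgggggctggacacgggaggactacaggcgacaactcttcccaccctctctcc
Rasip1: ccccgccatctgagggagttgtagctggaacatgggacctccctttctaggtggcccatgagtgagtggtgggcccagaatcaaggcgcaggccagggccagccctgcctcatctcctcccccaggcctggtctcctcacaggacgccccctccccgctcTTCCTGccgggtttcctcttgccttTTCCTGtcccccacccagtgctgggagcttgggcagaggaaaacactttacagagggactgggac
Gpr4: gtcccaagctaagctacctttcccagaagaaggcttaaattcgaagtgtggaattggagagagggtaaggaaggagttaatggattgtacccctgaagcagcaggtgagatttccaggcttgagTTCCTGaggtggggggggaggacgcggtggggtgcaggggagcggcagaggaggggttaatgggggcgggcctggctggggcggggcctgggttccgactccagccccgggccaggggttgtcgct
Eng: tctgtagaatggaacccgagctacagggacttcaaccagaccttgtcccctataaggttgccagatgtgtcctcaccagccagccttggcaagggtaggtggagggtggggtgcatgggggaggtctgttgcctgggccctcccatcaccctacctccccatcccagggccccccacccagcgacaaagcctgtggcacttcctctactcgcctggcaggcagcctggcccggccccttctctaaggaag

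Rasip1 held 2 copies of CAGGAA in its upstream run, Tie1 and Gpr4 1 copy each, and Cldn5 and Eng none, although the window of Eng had a copy in the 50 bases after the start that are not shown. Over the whole windows, 15 of the 22 genes (68.2%) held CAGGAA in at least 1 window, against 33.4% of the 27025 genes with windows and 31% of the 10595 of them that were tested in HFD mice. By call in HFD mice, CAGGAA was held by 11 of the 17 called genes and by 4 of the 5 genes with windows that were not called. The other ETS motif searched, CCGGAA, was found in Kdr and Adgrl4 only, 9.09% of the 22 genes against 16.7% of all genes with windows and 30% of those tested in HFD mice. Of the SOX motifs, AACAAT and ACAAAG were each found in 4 genes (18.2%), against 12.2% and 21% of all genes and 7.31% and 16.1% of those tested. The GATA motif AGATAA was also found in 4 genes, against 12.7% of all genes and 8.07% of those tested, and the E-box CAGCTG in 2 genes, against 18.3% and 18.1%. All motifs were searched on both strands, the ETS motifs share the core GGAA, and a match describes letters in the window and not a bound factor.

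The same comparison was made in ND mice. Here 2 of the 35 genes tested rose and none fell, and the genes' median log2 fold change was 0.78 where that of all genes was -0.016. Clec14a and Myct1 were too low to be tested. The called share of 5.71% stood beside 3.55% of the 12441 genes tested that were called higher in ND ARMs and 0.129% that were called lower. The log2 fold change was above 0 for all 35 genes, against 46.5% of all genes tested. An unadjusted p below 0.05 in edgeR's quasi-likelihood test was found for 17 of the 35, a count not made over all genes. Both ARM libraries were above both SM libraries for 21 of the 37 genes, against 21.1% of all genes tested. The genes that rose were Tek and Adgrf5. Adgrf5 was thus called in both diets, as 1.64% of the genes tested in both were.

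Tek was at 0.39 and 0.49 FPKM in ND SMs and at 0.93 and 1.27 FPKM in ND ARMs. Both ARM libraries were above both SM libraries, and the log2 fold change was 1.32 (SE 0.294, adjusted p 0.0165 by edgeR's quasi-likelihood test). Adgrf5 was at 1.48 and 1.69 FPKM in ND SMs and at 1.85 and 4.25 FPKM in ND ARMs. Here ARM replicate 1 lay just above the SM libraries and ARM replicate 2 far above them, and the log2 fold change of 0.99 (SE 0.268) had an adjusted p of 0.048 in the same edgeR test. DESeq2 called 0 of the genes in ND mice (9 at an unadjusted p below 0.05), and without ND SM replicate 1 or without ND ARM replicate 2 neither gene was called. Without ND ARM replicate 1, 15 genes were called.

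The ND ARM libraries stood apart from each other over nearly all of these genes. CPM in ARM replicate 2 was above that in ARM replicate 1 for 36 of the 37 genes, by a median ratio of 1.91, whereas over all genes tested the median ratio was 1.01 and 52% were above 1. Cldn5 was at 2.23 and 2.39 FPKM in ND SMs and at 2.67 and 8.18 FPKM in ND ARMs. Pecam1 was at 1.64 and 2.21 FPKM in SMs and at 2.18 and 4.57 FPKM in ARMs, and Esam at 1.03 and 1.48 against 1.55 and 2.79 FPKM. In each of them ARM replicate 1 lay at or near the higher SM library and ARM replicate 2 clearly above. Icam2, at 2.55 and 2.34 FPKM in ND SMs and 2.87 and 2.58 FPKM in ND ARMs, was the 1 gene without that order, with a ratio of 0.914. The ratio was over 2 for 15 genes and over 3 for Cldn5, Erg and Sox18. Against the mean of the SM libraries, ARM replicate 1 had a median CPM ratio of 1.17 and ARM replicate 2 one of 2.36. Above the SM mean were 28 genes in ARM replicate 1 and 37 in ARM replicate 2, against 46% and 47.3% of all genes tested. Above both SM libraries were 21 genes in ARM replicate 1 and all 37 genes in ARM replicate 2, which was not counted over all genes.

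**Figure D3:**
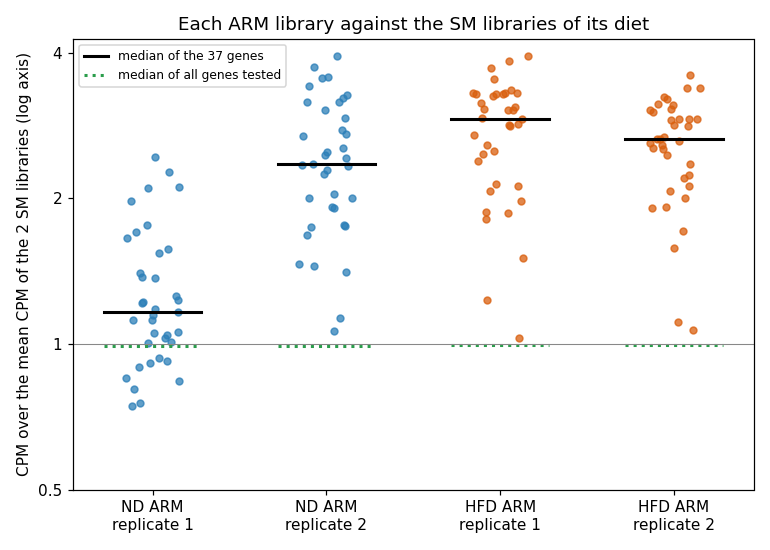
CPM of each of the 37 genes (points) in each ARM library, divided by the mean CPM of the SM libraries of the same diet (y axis, log scale); black lines are medians over the 37 genes and dotted green lines medians over all genes tested. ND ARM replicate 1 has a median of 1.17 and ND ARM replicate 2 of 2.36, whereas the HFD ARM libraries have medians of 2.91 and 2.65.

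In HFD mice the ARM libraries were closer than in ND mice, at a median ratio of 0.924 of replicate 2 to replicate 1. The ratio was above 1 for 11 of the 37 genes, against 50.5% of all genes tested. SM replicate 1 was above SM replicate 2 for 31 of the 37 genes, against 49.7% of all genes tested. The median ratio of the HFD SM libraries was 1.35, and 0.999 over all genes tested. In ND mice SM replicate 1 was above SM replicate 2 for 11 of the 37 genes, against 50.6% of all genes tested. The median ratio of the ND SM libraries was 0.803, and 1.002 over all genes tested. The sum over the 35 genes other than Eng and Tal1 shows the same order of libraries. It was 153 and 114 CPM in HFD SMs, 378 and 355 CPM in HFD ARMs, 75.2 and 89.5 CPM in ND SMs, and 93.4 and 190 CPM in ND ARMs. The summed level of ND ARM replicate 1 was thus close to that of the ND SM libraries, and that of ND ARM replicate 2 was above the SM libraries of both diets.

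Whether the ARM to SM change differed between diets was tested as the interaction of cell population and diet. The HFD change minus the ND change was above 0 for 32 of the 37 genes, against 44.7% of all genes tested. Its median was 0.63 on the log2 scale against -0.025 for all genes. None of the 37 genes passed an adjusted p of 0.05 in edgeR's quasi-likelihood test, where 0.165% of the 13358 genes tested did, and DESeq2 also called 0, with 3 at an unadjusted p below 0.05. In edgeR an unadjusted p below 0.05 was found for 7 of the 37 genes, and for 1017 of the 13358 genes tested. The 7 were Robo4, Plvap, Kdr, Sele, Egfl7, Mmrn2 and Rasip1. Robo4 had the smallest, with a difference of 1.22 (SE 0.361) and an adjusted p of 0.268 in edgeR's quasi-likelihood test. Its SM libraries were at 1.22 and 0.78 FPKM in HFD and 0.38 and 0.51 FPKM in ND, and its ARM libraries at 3.70 and 3.59 FPKM in HFD and 0.56 and 0.91 FPKM in ND. Tek had a difference of the other sign, -0.49 (SE 0.405), which did not pass either (adjusted p 0.891 in the same edgeR test). Without ND ARM replicate 2 the median difference was 1.13 and 2 genes, Ptprb and Adgrf5, were called, and without ND ARM replicate 1 the median was 0.24 and none was called.

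Levels can be set side by side between diets only as values, since the tables of the diets were made separately and the diets share no library. FPKM in both HFD libraries exceeded that in both ND libraries for 26 of the 37 genes in SMs and for 33 in ARMs. Both HFD libraries were below both ND libraries for 2 genes in SMs and for 1 in ARMs. How often the diets separate in this way over all genes was not counted. The median ratio of HFD to ND was 1.69 in SMs and 2.49 in ARMs, where genes at 1 FPKM or more in both diets had medians of 0.885 and 0.910. Only 8 of the 37 genes reached 1 FPKM in both ND SM libraries, and 8 in both ND ARM libraries, so the sets compared differ in level. For 32 genes both HFD ARM libraries were above all 6 other libraries, likewise without a count over all genes. Plvap showed one of the wider gaps, at 0.61 and 0.81 FPKM in ND SMs and 0.76 and 1.04 FPKM in ND ARMs beside its HFD levels given above. Across the 35 genes tested in both diets, the log2 fold changes of HFD and ND had Pearson's r of 0.574 and Spearman's rho of 0.557, a description over genes that are not independent of each other and share their libraries.

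Cldn5 and Pecam1 were among the 4 highest genes in each of the 4 groups once Eng and Tal1 were left out. The 4 highest mean FPKM values belonged to Cldn5, Pecam1, Adgrf5 and Esam in HFD ARMs and to Cldn5, Pecam1, Adgrf5 and Icam2 in ND ARMs. In HFD SMs they belonged to Cldn5, Pecam1, Esam and Icam2, and in ND SMs to Icam2, Cldn5, Pecam1 and Adgrf5. These top 4 genes held 32.0% of the summed FPKM of the 35 genes in HFD SMs, 34.6% in HFD ARMs, 33.6% in ND SMs and 34.0% in ND ARMs. Neighbours such as Esam, Icam2, Adgrf5 and Plvap in HFD SMs, at mean levels of 2.25, 2.25, 2.20 and 2.16 FPKM, differed by less than the spread between their libraries. Over the 37 genes, the log2 mean FPKM in HFD SMs and the log2 fold change in HFD mice had r of -0.291 and rho of -0.15, again a description, since both use the same SM libraries.

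Other genes of vessel biology were read from a list of 57 names of ligands, receptors and regulators outside the 37, with 51 tested in HFD and 46 in ND. In HFD mice 17 rose in ARMs and 1 fell, at a median log2 fold change of 0.38. In ND mice 6 rose and none fell, at a median of 0.24. Over all genes tested, 4.46% were called higher and 0.292% lower in HFD, and 3.55% and 0.129% in ND. These shares stand beside the counts of this list and of the lists below. Cdh5, the VE-cadherin of adherens junctions, was at 4.90 and 3.37 FPKM in HFD SMs and at 11.43 and 10.53 FPKM in HFD ARMs. In ND mice Cdh5 was at 2.34 and 2.70 FPKM in SMs and at 2.94 and 5.62 FPKM in ARMs, so ND ARM replicate 2 was again the higher library. The log2 fold change of Cdh5 was 1.38 in HFD (SE 0.138, adjusted p 0.000235) and 0.76 in ND (SE 0.235, adjusted p 0.0902) by edgeR's quasi-likelihood test. The study reports Cdh5 mRNA as higher in ARMs by RT-PCR, and its protein (CD144) as higher on ARMs of obese mice by flow cytometry. Gpihbp1, which carries lipoprotein lipase to the capillary lumen, rose by 1.72 on the log2 scale in HFD ARMs, and the platelet and endothelial selectin Selp by 1.49. The gene that fell was Klf2, a flow-responsive factor that macrophages also express, by 0.62 on the log2 scale. DESeq2 called 12 genes of the list higher in HFD and 3 in ND. Without HFD ARM replicate 1, 9 genes of this list were called higher, and without HFD ARM replicate 2, 5. In ND mice 3 were called without SM replicate 1, 1 without ARM replicate 2 and 11 without ARM replicate 1.

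Vessel segments were read from short lists that share some of the 37 genes. In HFD ARMs 4 of 6 capillary genes, 4 of 6 venous genes and 2 of 7 arterial genes rose, and in ND ARMs 0 of the 6, 5 and 4 tested were called by edgeR's quasi-likelihood test (2, 3 and 3 at an unadjusted p below 0.05, and 0 by DESeq2). The capillary genes called in HFD were Kdr, Gpihbp1, Car4 and Aqp7, the venous ones Selp, Sele, Ephb4 and Vwf, and the arterial ones Sox17 and Dll4. Of the lymphatic endothelial list 3 of 7 rose in HFD, namely Flt4, Reln and Mmrn1, and 4 of 7 in ND, namely Ccl21a, Pdpn, Mmrn1 and Reln. Apart from Pdpn these stayed at low counts, Mmrn1 for example at 7 and 15 counts in HFD SMs and 43 and 30 in HFD ARMs. Prox1 of the same list was not called, with log2 fold changes of -0.17 in HFD and 0.066 in ND. Lyve1 was lower in HFD ARMs by 0.58 on the log2 scale (adjusted p 0.00134 by edgeR's quasi-likelihood test), short of 1.5-fold. The summed level of the list, 1622 to 1716 CPM in HFD SMs and 1046 to 1215 CPM in HFD ARMs, was nearly all Lyve1. That gene was at 647 and 609 FPKM in HFD SMs and at 459 and 399 FPKM in HFD ARMs, far above the rest of the list. The sum thus does not describe the other genes of the list.

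Markers of several other cell types also rose in ARMs, to a degree that differed by list and diet. Their part in the endothelial values was not tested. Pericyte and smooth muscle markers rose for 4 of 10 genes in HFD and 3 of 9 in ND, and their summed level was 51.4 to 76.8 CPM in HFD SMs and 124 to 135 CPM in HFD ARMs. Among them Pdgfrb changed by 1.42 and Notch3 by 1.27 on the log2 scale in HFD. Adipocyte markers rose for 7 of 8 genes in HFD, by a median of 2.80 on the log2 scale, and for 6 of 8 in ND, by 1.39, and Cidec and Plin4 had the smallest adjusted p among them in HFD. Their summed level was 63.5 to 68.0 CPM in HFD SMs, 181 to 187 CPM in HFD ARMs, 74.1 to 87.5 CPM in ND SMs and 121 to 200 CPM in ND ARMs. Most of the sum in HFD SMs was Lipe, at 862 and 914 counts there. Lipe was not called in HFD, with a log2 fold change of 0.30.

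Fibroblast and progenitor markers rose for 5 of 8 genes in HFD, by a median of 0.65, and for 7 of 8 in ND, by 1.48, Dcn and Col3a1 having the smallest adjusted p in HFD. Mesothelial markers rose for 6 of 7 genes in ND and for 0 of 7 in HFD by edgeR's quasi-likelihood test (1 at an unadjusted p below 0.05, 0 by DESeq2). The summed fibroblast level was 375 to 411 CPM in HFD SMs, 546 to 692 CPM in HFD ARMs, 234 to 297 CPM in ND SMs and 654 to 938 CPM in ND ARMs. Platelet and megakaryocyte markers were called for 0 of 5 genes in HFD and 0 of 4 in ND by edgeR and by DESeq2 (0 at an unadjusted p below 0.05), and their summed level was 11.2 to 15.2 CPM over all libraries. Of the mast cell markers 1 of 4, Kit, rose in HFD, of the T and NK cell markers 1 of 2, Il7r, rose in HFD, and of the neutrophil markers 1 of 3, S100a9, fell in ND.

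The gap between the ND ARM libraries was shared by several of these lists. The median ratio of replicate 2 to replicate 1 was 1.76 over the adipocyte markers, 1.59 over the pericyte and smooth muscle markers, 1.49 over the fibroblast markers and 1.40 over the mesothelial markers. It was 2.65 over the 3 neutrophil markers tested and 1.99 over the 4 mast cell markers, and 1.27 over the 2 T and NK cell markers. It was 0.922 over the lymphatic list and 1.04 over the macrophage markers. In HFD SMs, where replicate 1 was the higher library for the endothelial genes, the ratio of replicate 1 to replicate 2 was 1.42 over the pericyte markers, 1.90 over the mesothelial markers, 0.943 over the adipocyte markers and 0.982 over the macrophage markers.

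**Figure D4:**
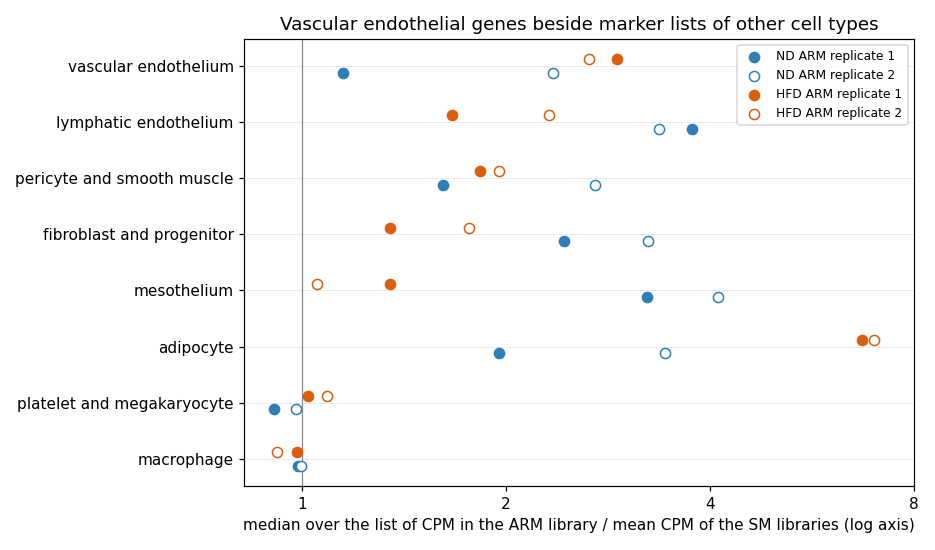
Median over each marker list of the CPM in an ARM library divided by the mean CPM of the SM libraries of its diet (x axis, log scale), for the 4 ARM libraries. The vascular endothelial genes lie at 2.91 and 2.65 in HFD and at 1.15 and 2.35 in ND over the genes tested, the adipocyte markers at 6.72 and 7.0 in HFD, and the macrophage markers near 1 in all 4 libraries.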

How the data were processed

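RNA-seq of 8 libraries (ARM and SM, ND and HFD, 2 each) was analysed. The authors sent RNA of flow-sorted cells to a sequencing company (Illumina), and the build is mm10 per the labels. Aligner, counting program and annotation are not given in the sources used here. The deposited tables, 1 per diet, give estimated counts per gene that the authors obtained from the reads (they need not be whole), and FPKM and TPM values that the authors made from them, with no pooling of libraries. 0 columns of another sample were used.

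Estimated counts were rounded and tested with edgeR 4.0.16 (R 4.3.3; filterByExpr, TMM, quasi-likelihood test, Benjamini-Hochberg adjustment over all genes), each diet on its own libraries, and the difference between diets as an interaction in all 8. A call needed an adjusted p under 0.05 and over 1.5-fold. Replicates differed beyond sampling noise. With 2 against 2 libraries an exact two-sided permutation test cannot go below 0.333 and was not used. CPM used TMM-scaled totals. Alternatives were DESeq2 1.42.0, limma 3.58.1 on log2(FPKM + 1) and log2(FPKM + 0.1) with at least 1 FPKM in 2 libraries or no filter, other scalings and filters, a replicate block and leaving out each library. The scripts were tested on simulated data. Python 3.11.15, pandas 2.3.3 and matplotlib 3.10.9 drew the figures.

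The members and lists were chosen with earlier results of these data known. By rule, values per library were given for genes called in both diets and for the 6 tested genes with the highest mean FPKM over SM libraries, and of each other list up to 4 genes with the smallest adjusted p in HFD, and Cdh5. No called gene had 3 or fewer counts in every SM library. Further genes with values per library, genes of other lists outside this rule and the genes whose promoters are printed were chosen after their values were seen. Depth was 14508824 to 19040133 counts, and counts near 10 per library give wide errors. Promoter windows came from RefSeq (GRCm38.p6).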

Additional observations from a re-analysis of the deposited data

How the results depend on the processing

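In HFD mice the count of 31 endothelial genes called higher was 30 with DESeq2, 32 with library totals, 31 with upper-quartile factors, 33 with at least 10 counts in every library, 29 in one fit of all 8 libraries, 26 and 27 with limma on log2(FPKM + 1) and log2(FPKM + 0.1), and 34 at the thresholds of the study's methods section. The filter of these limma forms kept genes with at least 1 FPKM in 2 libraries. Of the 33 genes at 1 FPKM or more in both HFD ARM libraries, 15 were below it in both SM libraries. Those genes passed by their ARM levels alone, so the 26 and 27 depend on a filter tied to the difference tested. The count called higher was 15 with no filter on low counts. It was 0 with limma on log2(FPKM + 1) without a filter, where the median log2 fold change was 0.85 (0.89 with the filter). Leaving out 1 library gave 19 to 33.

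In ND mice the 2 filtered forms of limma called 0 genes, but their filter left most of the genes untested. Only 8 genes reached 1 FPKM in both ND SM libraries and 8 in both ND ARM libraries. Tek, called in the main test, was at 0.39 and 0.49 FPKM in SMs and 0.93 and 1.27 FPKM in ARMs. It missed the filter and could not be called there. The count of 2 was 0 with DESeq2 and with limma on log2(FPKM + 1) without a filter. It was 1 with at least 10 counts in every library and 1 in one fit of all 8 libraries. It was 10 with no filter on low counts and 17 at those thresholds (unadjusted p under 0.05, log2 fold change beyond 0.6), where the study's legends give the rule used here. Leaving out 1 library gave 0 to 15. The cause of these shifts was not tested. With the replicate block 14 genes were called in ND and 32 in HFD. Same-numbered libraries deviated together with correlations of 0.279 in ND and 0.0181 in HFD. With 2 pairs per diet and no label of a shared batch, the number was not taken as a pairing. The diet difference was called for 0 genes under each alternative fitted to all 8 libraries, and for 0 to 2 with 1 library left out.

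With 1 library left out the sign turned for Eng in HFD, over a range of -0.012 to 0.16, and in ND, without ARM replicate 2, for 9 genes, whose log2 fold changes ranged over -0.23 to 1.19 for Ptprb, -0.12 to 0.17 for Eng, -0.13 to 0.99 for Adgrl4, -0.43 to 1.32 for Erg, -0.17 to 1.42 for Sox18, -0.41 to 0.80 for Cyyr1, -0.31 to 0.53 for Vwf, -0.25 to 0.79 for Egfl7 and -0.094 to 0.999 for Rasip1. No other setting turned a sign. TPM in place of FPKM kept the rank of 35 of the 37 genes in HFD SMs.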
